A study of Homo sapiens with 77 samples.

Results

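KARPAS422 is a cell line of diffuse large B cell lymphoma that carries a gain-of-function mutation in EZH2. Described here is its RNA with EPZ-6438 (tazemetostat), an inhibitor of the methyltransferase EZH2, against its control. The members are the 4 RNA-seq libraries that the labels place in these groups, 2 with EPZ-6438 and 2 controls, of 77 samples in the series and 32 RNA-seq libraries with counts. All genes of the table were examined. The study asked which genes cancer cells need together with the Polycomb complex and whether an EZH2 inhibitor and a menin inhibitor act better as a pair. Per its figure legend, KARPAS422 cells received 1 µM EPZ-6438, 330 nM VTP50469 (an inhibitor of the binding of menin to MLL), both drugs or neither for 48 hours. SuDHL10, a further lymphoma line with mutant EZH2, received the same doses for 24 hours. Each treatment of each line has 2 libraries. KARPAS422 is 1 line that stands for no other, and no label says whether a group's libraries were grown apart. The p-values therefore cover only the spread between these libraries, which may be technical.

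EZH2 is the catalytic subunit of Polycomb repressive complex 2 (PRC2), which with EED and SUZ12 places methyl groups on lysine 27 of histone H3, a mark of silenced genes. In germinal centers, where B cells mutate their antibody genes, EZH2 is abundant and holds down cell cycle inhibitors and genes of later B cell stages. Menin and the MLL methyltransferases belong to a complex of the opposite kind, which marks active promoters. Mutant EZH2 of lymphoma raises the trimethylated form of the Polycomb mark, and EPZ-6438 blocks the enzyme without removing the protein.

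The EPZ-6438 libraries held 8956156 and 14778507 counts, and the control libraries 12817176 and 18449323. Values are in CPM, a gene's counts scaled to a common library total by the trimmed mean of M-values, with replicate 1 before replicate 2. Fold changes are log2 differences ± the standard error of the fit. Markers of B cells summed to 4104 and 4252 CPM with EPZ-6438, against 3899 and 4037 CPM in control libraries. Myeloid markers summed to 25.4 to 28.5 CPM over the 4 libraries, with S100A8, ELANE and AIF1 at 0, and epithelial markers to 65.2 to 71.4 CPM. T cell markers summed to 271 to 323 CPM. Of these 12 markers TRBC1 and TRBC2 were at 0 but 7 passed the filter on low counts, so that list was not silent. A 0 here need not mean absence, as given below. The fibroblast list was the highest outside the B cell list, at 1044 to 1080 CPM with EPZ-6438 and 630 to 718 CPM in control libraries. Nearly all of it came from DCN (decorin), which had 1066 and 1031 CPM in the EPZ-6438 libraries, against 704 and 618 CPM in the control libraries (log2 fold change 0.67 ± 0.14, adjusted p = 0.036). COL1A1 and LUM were at 0 in both EPZ-6438 libraries. DCN was also at 735 and 713 CPM in the separate vehicle (DMSO) libraries of this line, so DCN is part of this line's RNA in both experiments. Of the genes in this table, 2745 were at 0 in all of its libraries. Of these, 583 had at least 100 counts in every KARPAS422 vehicle library of the series' other RNA-seq table. CDKN2A, PRDM1, IRF1, IFIT1, IFIT2, IFIT3, JUNB and RING1 are among them and cannot be read here.

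The RNA of the drug's own target and of the core PRC2 subunits differed by less than the spread of the libraries. EZH2 (chromosome 7, 148807257 to 148884321, hg38) had 266 and 263 CPM in the EPZ-6438 libraries, against 291 and 238 CPM in the control libraries (log2 fold change 0.00 ± 0.18, adjusted p = 0.999). EED had 249.7 and 242 CPM with EPZ-6438, against 287 and 242 CPM in control libraries. SUZ12, which holds the complex together, had 253 and 254 CPM with the drug and 261 and 199 CPM without. The control libraries lay on both sides of the EPZ-6438 libraries for EZH2 and SUZ12. Of 11 PRC2 subunits tested, 1 rose at an adjusted p under 0.1, a share near the 8.27% of all genes. It was JARID2, which helps to bring the complex to chromatin, with 27.8 and 27.1 CPM in the EPZ-6438 libraries, against 12.5 and 17.1 CPM in the control libraries (log2 fold change 0.88 ± 0.21, adjusted p = 0.044). Its lowest EPZ-6438 library stood above its highest control library.

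The filter on low counts left 13223 genes, of which 906 rose (6.85%) and 335 fell (2.53%) with EPZ-6438 at an adjusted p under 0.1 and a change of over 1.5-fold. Compared with falling genes, rising genes were lower before treatment and changed further. Their median was 7.29 CPM in control libraries, their median log2 fold change was 1.13, and 547 changed by over 2-fold and 95 by over 4-fold. Falling genes were well expressed and changed little. Their median was 84.4 CPM in control libraries and their median log2 fold change −0.69, with 12 past 2-fold. The median control level of all genes tested was 28.2 CPM, and their median log2 fold change was −0.02. In control libraries 39.7% of the rising genes were at 10 CPM or more and 9.71% under 1 CPM, beside 61.9% and 17.1% of all genes tested. A low gene needs a larger change to be called and can hardly be called as a fall. The part of this in the contrast between rises and falls was not tested. Libraries of the groups did not overlap for any called gene, a pattern shared by 27.3% of all genes tested with EPZ-6438 higher and 29.7% with EPZ-6438 lower. Where a called gene's libraries are said not to overlap, that adds no support to its call.

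The counts rest on few libraries. Without EPZ-6438 replicate 2, the deeper EPZ-6438 library, edgeR called 0 genes (1140 at an unadjusted p under 0.05, lowest adjusted p 0.136). In turn, 317 rose and 581 fell without EPZ-6438 replicate 1, 521 and 672 without control replicate 1, and 342 and 282 without control replicate 2. Scaled by total counts alone, which moved the median log2 fold change of all genes by 0.10, 1084 rose and 145 fell, so the rising share of calls was 88.2% and not 73%. Same-numbered libraries deviated together, and the fit with the replicate number as a block gave 1097 rises (8.30%) and 346 falls (2.62%), holding all 906 rises and 328 of the 335 falls. With the block and without EPZ-6438 replicate 2, 424 genes rose and 12 fell. Of 106 named genes, 29, 103, 17 and 43 lost their call with 1 library left out, taking EPZ-6438 replicates 1 and 2 and then control replicates 1 and 2. Counts with 1 library left out are given below in that order, and no gene or list member passed without EPZ-6438 replicate 2.

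**Figure D1:**
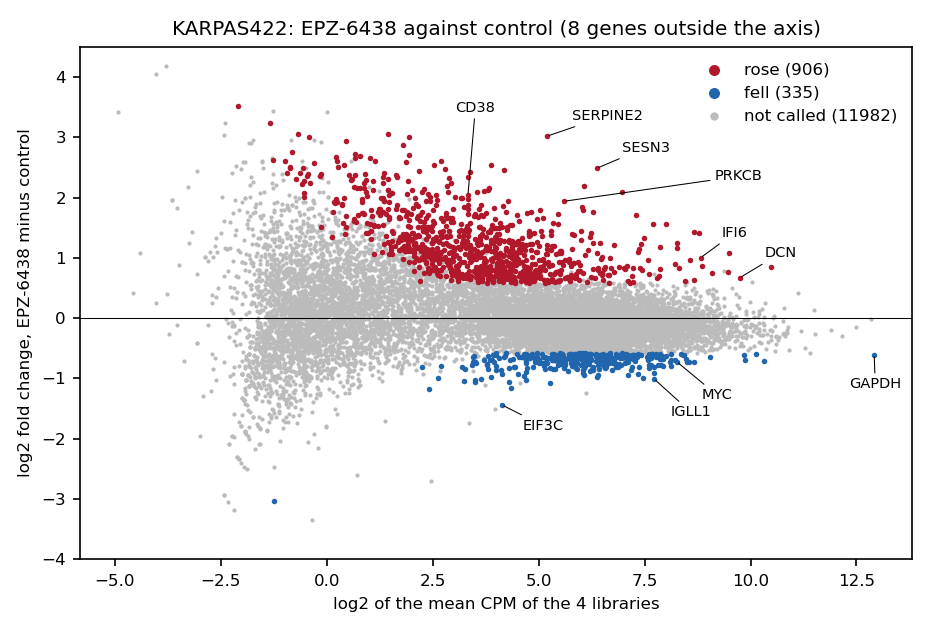
Log2 fold change with EPZ-6438 (vertical axis) against the log2 of the mean CPM over the 4 KARPAS422 libraries (horizontal axis), 1 point per gene tested. Red points are the 906 genes that rose and blue points the 335 that fell, and the red points reach further from 0 and to lower levels than the blue ones. 8 genes lie outside the vertical range drawn.

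Of the 15 largest rises among called genes at 5 CPM or more, 13 are named here. SERPINE2 (chromosome 2, 223975045 to 224039318, hg38), a secreted inhibitor of serine proteases, had 69.4 and 61.2 CPM in the EPZ-6438 libraries, against 7.95 and 8.11 CPM in the control libraries (log2 fold change 3.02 ± 0.18, adjusted p = 0.0016). LGALS9, the lectin galectin-9, had 6.61 and 7.06 CPM with EPZ-6438, against 0.761 and 0.901 CPM in control libraries (log2 fold change 3.01 ± 0.27, adjusted p = 0.0042). SESN3, a sestrin that restrains mTORC1 signaling, had 139 and 143 CPM with the drug and 27.8 and 22.5 CPM without (log2 fold change 2.49 ± 0.31, adjusted p = 0.0095). For all 3 both EPZ-6438 libraries stood far above both control libraries. PECAM1, the adhesion molecule CD31, had 29.2 and 32.1 CPM with EPZ-6438, against 4.90 and 6.14 CPM in control libraries (log2 fold change 2.46 ± 0.15, adjusted p = 0.0016). APCDD1, a membrane inhibitor of Wnt signaling, had 24.99 and 25.5 CPM with the drug and 3.80 and 4.79 CPM without (log2 fold change 2.54 ± 0.15, adjusted p = 0.0016). FYB1, an adaptor of T cell receptor signaling, had 6.39 and 6.14 CPM with the drug and 1.18 and 0.901 CPM without (log2 fold change 2.60 ± 0.26, adjusted p = 0.0057). For PECAM1, APCDD1 and FYB1 too the groups lay far apart. The others named were TMEM100, TBC1D9, KIAA1210, KLHL13, RIN2, ILDR2 and GAS2L3, with log2 fold changes of 2.38 to 2.88.

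The 15 largest falls among called genes at 5 CPM or more were smaller than these rises. IGLL1 (chromosome 22, 23573125 to 23580302), which encodes a part of the surrogate light chain of B cell precursors, had 145 and 136 CPM in the EPZ-6438 libraries, against 269 and 296 CPM in the control libraries (log2 fold change −1.01 ± 0.11, adjusted p = 0.0064). Its sequence resembles other immunoglobulin lambda genes, so its reads may be shared. ISYNA1, the enzyme that makes inositol phosphate from glucose phosphate, had 25.6 and 23.95 CPM with EPZ-6438, against 47.3 and 57.0 CPM in control libraries (log2 fold change −1.08 ± 0.12, adjusted p = 0.0064). NUMBL, a relative of the Notch regulator Numb, had 57.4 and 54.6 CPM with the drug and 104 and 117 CPM without (log2 fold change −0.99 ± 0.10, adjusted p = 0.0064). For these 3 genes every EPZ-6438 library was under every control library. TERT, the catalytic subunit of telomerase, had 18.9 and 15.4 CPM with EPZ-6438, against 29.8 and 39.8 CPM in control libraries (log2 fold change −1.03 ± 0.25, adjusted p = 0.047). ENDOG, a mitochondrial nuclease, had 13.7 and 11.8 CPM with the drug and 23.6 and 32.8 CPM without (log2 fold change −1.16 ± 0.18, adjusted p = 0.016). PLK3, a polo-like kinase of the stress response, had 10.6 and 9.04 CPM with the drug and 17.7 and 21.1 CPM without (log2 fold change −0.98 ± 0.17, adjusted p = 0.02). EIF3C, a subunit of a translation initiation factor, had the largest fitted fall of the 15 (log2 fold change −1.44 ± 0.44, adjusted p = 0.089), but its control libraries were at 38.2 and 13.3 CPM and a near-identical copy of the gene may share its reads. The other members were HIC1, CEBPD, CBARP, RAB3A, KCNAB3, CENPV, SH3D21 and TUBA4A, with log2 fold changes of −1.18 to −0.99. Scaled by total counts alone, EIF3C, HIC1, TERT and SH3D21 missed the threshold, with adjusted p = 0.109 to 0.14.

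**Figure D2:**
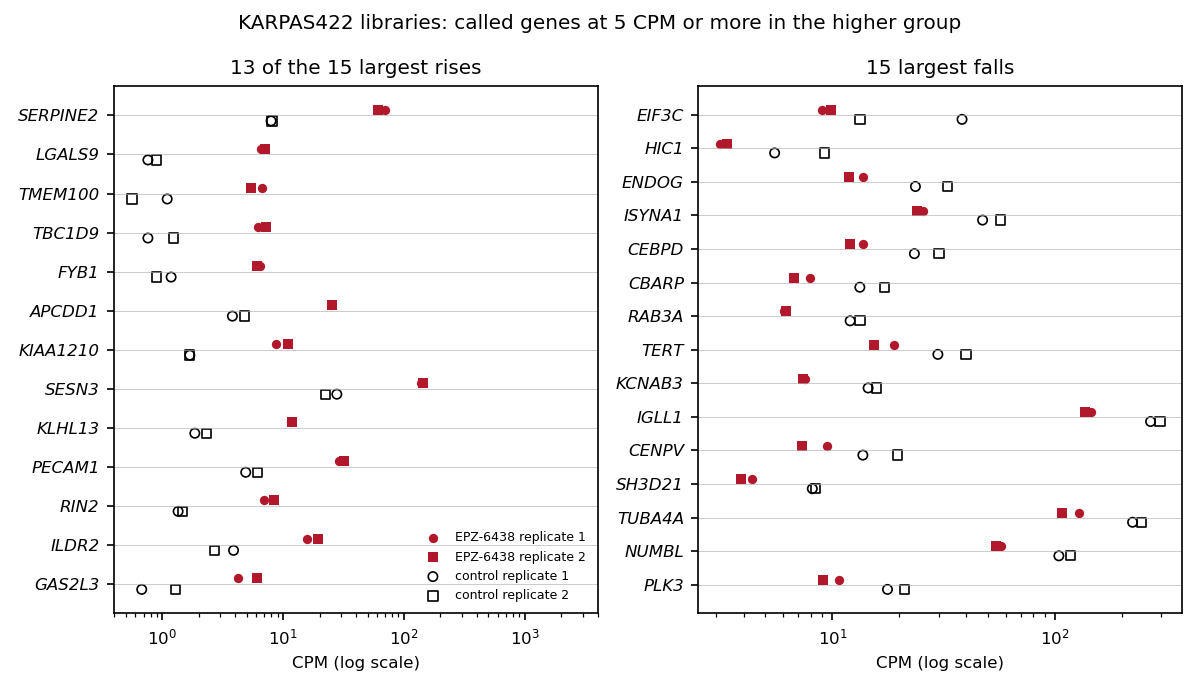
CPM on a log axis in each of the 4 KARPAS422 libraries for 13 of the 15 largest rises (left) and the 15 largest falls (right) among called genes at 5 CPM or more in the higher group. Red symbols are EPZ-6438 and open symbols control, circles replicate 1 and squares replicate 2. The red and the open symbols do not overlap in any row because genes were chosen by that rule. EIF3C is the row with the widest control pair, 38.2 and 13.3 CPM.

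Genes induced by interferon had the highest share of rises among lists with at least 10 members tested. Interferon is the signal of viral infection, which turns on sensors of foreign RNA, antiviral effectors and antigen presentation. At an adjusted p under 0.1 alone, the rule used for lists, 34 of 42 members tested rose and 0 fell, beside 8.27% and 10% of all genes tested. The list's median log2 fold change was 1.00. IFI6, an antiviral protein, had 609 and 602 CPM in the EPZ-6438 libraries, against 297 and 307 CPM in the control libraries (log2 fold change 1.00 ± 0.08, adjusted p = 0.0031). MX2, a GTPase that restricts viruses, had 247 and 234 CPM with EPZ-6438, against 103 and 103 CPM in control libraries (log2 fold change 1.23 ± 0.10, adjusted p = 0.0036). OASL, of the oligoadenylate synthetase family, had 29.2 and 26.6 CPM with the drug and 7.36 and 7.88 CPM without (log2 fold change 1.87 ± 0.10, adjusted p = 0.0016). XAF1, an interferon-induced factor of cell death, had 107 and 97.0 CPM with the drug and 28.5 and 28.1 CPM without (log2 fold change 1.85 ± 0.12, adjusted p = 0.0019). In all 4 genes the libraries of a group lay close together and the groups far apart. IFIH1, a sensor of double-stranded RNA chosen here after its values were seen, had 12.4 and 12.1 CPM with EPZ-6438, against 2.45 and 2.42 CPM in control libraries (log2 fold change 2.33 ± 0.24, adjusted p = 0.0062). When 1 library was left out, 23, 0, 28 and 22 interferon members rose.

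The promoters of such genes hold a binding sequence for the interferon-activated factors, whose core was searched for as GAAA, NN and GAAA in a row (N for any base). Both strands were searched and overlapping matches counted, in the 300 bases from 250 before to 50 after each gene's start in RefSeq (GRCh38.p14). It stood in 21 of the 34 tested interferon genes with an entry (61.8%), in 65 of 732 rising genes with an entry (8.88%) and in 5 of 268 falling genes (1.87%). As a description, it stood in 439 of 10499 tested genes with an entry (4.18%). Counted by promoter and not by gene, it stood in 3.57% of all 35116 promoters of the table. Interferon genes that rose by over 1.5-fold are counted among the rising genes too. Of 27 interferon genes with an entry that rose at the rule used for lists, 17 held the match. The searched sequence is rich in A, and the promoters differed in their bases. The median share of G and C was 64.25% in rising and 69.1% in falling genes. The part of this in the contrast was not tested. The promoters of 3 genes that rose are shown because they hold the match in different numbers and on different strands, with the matches in capitals and each sequence written 5′ to 3′ along the gene's own strand. A match is a description of the letters and not a measured binding site.
IFI6 (chr1:27672143-27672442, minus strand): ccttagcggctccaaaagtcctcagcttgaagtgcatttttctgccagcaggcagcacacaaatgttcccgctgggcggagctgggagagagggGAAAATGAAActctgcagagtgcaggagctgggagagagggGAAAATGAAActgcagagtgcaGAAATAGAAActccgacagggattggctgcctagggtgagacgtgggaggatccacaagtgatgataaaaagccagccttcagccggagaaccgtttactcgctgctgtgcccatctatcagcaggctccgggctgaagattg
IFIH1 (chr2:162318635-162318934, minus strand): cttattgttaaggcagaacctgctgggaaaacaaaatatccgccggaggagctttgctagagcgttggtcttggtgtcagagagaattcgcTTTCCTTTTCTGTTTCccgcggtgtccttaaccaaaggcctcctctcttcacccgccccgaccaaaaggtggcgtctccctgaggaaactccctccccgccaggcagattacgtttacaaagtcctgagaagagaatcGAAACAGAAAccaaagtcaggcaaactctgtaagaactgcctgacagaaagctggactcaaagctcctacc
LGALS9 (chr17:27630938-27631237, plus strand): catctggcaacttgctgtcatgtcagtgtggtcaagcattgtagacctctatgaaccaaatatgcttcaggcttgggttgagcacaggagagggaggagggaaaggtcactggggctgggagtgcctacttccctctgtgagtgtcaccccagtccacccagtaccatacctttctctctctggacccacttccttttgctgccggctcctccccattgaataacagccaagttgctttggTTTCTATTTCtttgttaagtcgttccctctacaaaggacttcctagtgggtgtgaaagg
IFI6 and IFIH1 each held 3 matches, some of which overlap in IFIH1, and LGALS9 held 1.

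Among B cell genes, those of the germinal center and of activated B cells that passed the test all rose, while identity genes had no settled direction. Of 21 tested members of the germinal center program, 7 rose and 0 fell (median log2 fold change 0.47), beside 8.27% and 10% of all genes. SERPINA9, a serpin known from germinal center B cells, had 216 and 215 CPM in the EPZ-6438 libraries, against 130.1 and 112 CPM in the control libraries (log2 fold change 0.83 ± 0.12, adjusted p = 0.015). LMO2, a transcription cofactor of this stage, had 8.29 and 9.11 CPM with the drug and 2.96 and 2.87 CPM without (log2 fold change 1.58 ± 0.16, adjusted p = 0.006). BCL6, the repressor that defines the stage, had 683 and 679 CPM with the drug and 737 and 712 CPM without (log2 fold change −0.09 ± 0.12, adjusted p = 0.78), so its libraries differed by less than the test could call. TCL1A, BACH2, KLHL6 and ASB13 rose as well. Under the same leave-one-out fits, 4, 0, 7 and 6 of the list rose, and 11 scaled by total counts alone.

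Of 22 genes of memory and activated B cells 5 rose and 0 fell, beside 8.27% and 10% of all genes, with a median log2 fold change of 0.91. CD40, the receptor for T cell help, had 35.4 and 33.3 CPM in the EPZ-6438 libraries, against 14.3 and 14.9 CPM in the control libraries (log2 fold change 1.23 ± 0.10, adjusted p = 0.0032). CD86, a costimulatory ligand, had 25.4 and 28.2 CPM with the drug and 13.8 and 11.3 CPM without (log2 fold change 1.11 ± 0.16, adjusted p = 0.014). FCRL3, a receptor of the Fc receptor-like family, had 180.0 and 173 CPM with the drug and 103 and 90.8 CPM without (log2 fold change 0.87 ± 0.15, adjusted p = 0.021). FCRL5 and CCR7 also rose but from low levels, at 2 to 10 counts in each control library. FCRL5, of the same family, had 2.58 and 1.98 CPM with the drug and 0.169 and 0.563 CPM without (log2 fold change 2.55 ± 0.51, adjusted p = 0.03). CCR7, a homing receptor of lymph nodes, had 1.34 and 1.19 CPM with the drug and 0.169 and 0.338 CPM without (log2 fold change 2.25 ± 0.53, adjusted p = 0.045). CXCR4, the receptor that places germinal center cells in the dark zone, had 3.03 and 3.04 CPM with EPZ-6438, against 0.592 and 0.676 CPM in control libraries (log2 fold change 2.24 ± 0.25, adjusted p = 0.0068). Of genes known to be repressed by EZH2 in germinal center B cells, 4 of 12 tested rose and 0 fell, beside 8.27% and 10% of all genes. They were CDKN1A, TXNIP, FCRL5 and CCR7, with FCRL5 and CCR7 also counted among the memory and activated genes. Only 12 of the 20 members passed the filter. A low gene can pass it through the libraries where it is high, so rises are favored among those tested. With 1 library left out, 3, 0, 4 and 3 of the memory and activated genes rose, and 0, 0, 3 and 1 of the EZH2 targets.

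Of 25 genes of B cell receptor signaling, 3 rose and 2 fell, shares near the 8.27% and 10% of all genes. Under the block 1 fell, and scaled by total counts alone 7 rose and 0 fell. PRKCB (chromosome 16, 23835983 to 24220611), a kinase that links the receptor to NF-kB, had 73.7 and 80.2 CPM in the EPZ-6438 libraries, against 19.9 and 20.3 CPM in the control libraries (log2 fold change 1.94 ± 0.11, adjusted p = 0.0016). PTPN6, a phosphatase that dampens the receptor, had 294 and 296 CPM with the drug and 377 and 429 CPM without (log2 fold change −0.45 ± 0.09, adjusted p = 0.034), and lost its call when scaled by total counts alone (adjusted p = 0.14). When 1 library was left out, 1, 0, 2 and 1 of the list rose. Of 18 genes of B cell identity 3 fell and 0 rose, TCF3 among them with 283 and 265 CPM with the drug and 345 and 398 CPM without (log2 fold change −0.44 ± 0.11, adjusted p = 0.051). The list's direction was not settled. Under the block 2 rose and 2 fell, beside 10.4% and 9.88% of all genes, and scaled by total counts alone 5 rose and 2 fell. Plasma cell genes went both ways. CD38 had 15.7 and 16.7 CPM with EPZ-6438, against 3.97 and 3.89 CPM in control libraries (log2 fold change 2.04 ± 0.22, adjusted p = 0.0064). ELL2, an elongation factor of antibody secretion, had 1.68 and 2.51 CPM with the drug and 0.676 and 0.619 CPM without (log2 fold change 1.69 ± 0.47, adjusted p = 0.069). XBP1, a transcription factor of secretory cells, had 74.6 and 65.5 CPM with the drug and 112 and 109 CPM without (log2 fold change −0.66 ± 0.13, adjusted p = 0.027).

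Genes of antigen presentation that passed the test mostly rose, by small steps. HLA-C had 40.3 and 37.7 CPM in the EPZ-6438 libraries, against 22.9 and 21.9 CPM in the control libraries (log2 fold change 0.80 ± 0.09, adjusted p = 0.0068). HLA-B had 342 and 335 CPM with the drug and 227 and 269 CPM without (log2 fold change 0.45 ± 0.11, adjusted p = 0.054). The groups did not overlap for these class I genes, which may share reads. CD74, the invariant chain of class II molecules, had 2627 and 2480 CPM with EPZ-6438, against 1801 and 2024 CPM in control libraries (log2 fold change 0.42 ± 0.07, adjusted p = 0.022). Of the 10 class I genes tested 3 rose and 1 fell, and of 7 class II genes tested 2 rose, beside 8.27% and 10% of all genes. Under the same leave-one-out fits, 1, 0, 1 and 1 of the class I genes and 0 of the class II genes rose. HLA-DRA had at most 1 count in these libraries but 27882 and 28024 counts in the KARPAS422 vehicle libraries of the other table, so it was not tested and cannot be read here.

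Of 5 inhibitors of cyclin-dependent kinases tested, which restrain the cell cycle, 2 rose and 0 fell, beside 8.27% and 10% of all genes. CDKN1A (chromosome 6, 36676460 to 36687337), which encodes the inhibitor p21, had 15.02 and 14.1 CPM in the EPZ-6438 libraries, against 6.59 and 6.08 CPM in the control libraries (log2 fold change 1.20 ± 0.16, adjusted p = 0.011). CDKN2C, the inhibitor p18, had 79.7 and 71.7 CPM with the drug and 49.6 and 47.4 CPM without (log2 fold change 0.64 ± 0.12, adjusted p = 0.025). The libraries of the groups did not overlap for either gene. With 1 library left out, 0, 0, 2 and 0 of them rose. Of 52 genes that E2F factors use for DNA replication 23 fell and 0 rose, beside 10% and 8.27% of all genes, with a median log2 fold change of −0.35. ORC1, which marks origins of replication, had 57.9 and 51.5 CPM with EPZ-6438, against 86.2 and 85.8 CPM in control libraries (log2 fold change −0.65 ± 0.10, adjusted p = 0.015). CDC45, of the replicative helicase, had 140.4 and 131 CPM with the drug and 195 and 217 CPM without (log2 fold change −0.60 ± 0.10, adjusted p = 0.021). CHAF1A, a chaperone that loads histones on new DNA, had 128 and 121 CPM with the drug and 183 and 206 CPM without (log2 fold change −0.65 ± 0.11, adjusted p = 0.019). Of 41 mitotic genes 4 fell and 0 rose, a share of falls near the 10% of all genes, PLK1 among them at 179.6 and 173 CPM with the drug and 226 and 257 CPM without (log2 fold change −0.45 ± 0.10, adjusted p = 0.038). When 1 library was left out, 16, 0, 18 and 12 replication genes fell, and 1, 0, 2 and 1 mitotic genes.

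In the BCL2 family, which decides on cell death, BMF, an activator of death, had 3.25 and 1.72 CPM with EPZ-6438, against 0.423 and 0.563 CPM in control libraries (log2 fold change 2.28 ± 0.39, adjusted p = 0.02). The executioner BAX had 111 and 111 CPM with the drug and 136 and 139 CPM without (log2 fold change −0.31 ± 0.09, adjusted p = 0.072, and 0.11 with the replicate block). BAK1 had 40.5 and 34.7 CPM with the drug and 47.2 and 48.4 CPM without (log2 fold change −0.35 ± 0.10, adjusted p = 0.071). BID had 56.3 and 51.6 CPM with the drug and 74.8 and 81.1 CPM without (log2 fold change −0.53 ± 0.10, adjusted p = 0.025). Scaled by total counts alone, BAX and BAK1 missed the threshold (adjusted p = 0.21 and 0.22). The other 12 members tested, BCL2, MCL1 and BCL2L11 among them, were not called, but the balance of the list is not settled. Of the 16 members tested 1 rose and 3 fell, beside 8.27% and 10% of all genes. Under the block 2 members rose and 2 fell, beside 10.4% and 9.88% of all genes, and scaled by total counts alone 4 rose and 1 fell.

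MYC and genes of ribosome biogenesis were lower with EPZ-6438. MYC had 243 and 220.3 CPM in the EPZ-6438 libraries, against 361 and 405 CPM in the control libraries (log2 fold change −0.73 ± 0.12, adjusted p = 0.018), with both EPZ-6438 libraries under both control libraries. Of 47 genes of ribosome biogenesis 29 fell and 0 rose, beside 10% and 8.27% of all genes, with a median log2 fold change of −0.45. SRM, spermidine synthase, had 209 and 205 CPM with EPZ-6438, against 309 and 377 CPM in control libraries (log2 fold change −0.73 ± 0.12, adjusted p = 0.018). WDR74, an assembly factor of the large ribosomal subunit, had 97.7 and 98.1 CPM with the drug and 151 and 157 CPM without (log2 fold change −0.66 ± 0.09, adjusted p = 0.012). Under the same leave-one-out fits, 25, 0, 22 and 19 of the list fell. Of 58 cytosolic ribosomal proteins 11 fell and 0 rose, but 4 fell under the replicate block, 1 scaled by total counts alone, and 1, 0, 2 and 0 with 1 library left out.

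Of 28 tested genes of a list that joins glycolysis and the response to low oxygen 12 fell and 3 rose, beside 10% and 8.27% of all genes. GAPDH had 6303 and 5949 CPM in the EPZ-6438 libraries, against 8771 and 9938 CPM in the control libraries (log2 fold change −0.61 ± 0.07, adjusted p = 0.0071). PFKP, a phosphofructokinase, had 292 and 272 CPM with the drug and 434 and 496 CPM without (log2 fold change −0.72 ± 0.10, adjusted p = 0.013). ENO1, enolase, had 1616 and 1522 CPM with the drug and 2175 and 2370 CPM without (log2 fold change −0.53 ± 0.07, adjusted p = 0.011). BNIP3L, which marks mitochondria for removal, had 51.2 and 49.4 CPM with EPZ-6438, against 25.2 and 20.4 CPM in control libraries (log2 fold change 1.14 ± 0.16, adjusted p = 0.013). PFKFB4, an activator of glycolysis, had 14.8 and 14.6 CPM with the drug and 8.96 and 9.97 CPM without (log2 fold change 0.63 ± 0.13, adjusted p = 0.033). NDRG1, a hypoxia and stress gene, had 5.83 and 4.82 CPM with the drug and 1.86 and 2.53 CPM without (log2 fold change 1.27 ± 0.39, adjusted p = 0.092, and 0.11 scaled by total counts alone). Of 35 nuclear genes of oxidative phosphorylation 11 fell and 0 rose. The falls were small, with 0 past 1.5-fold and a median log2 fold change of −0.27 over the list. NDUFB10 was among them at 131 and 134 CPM with the drug and 182 and 189 CPM without (log2 fold change −0.48 ± 0.09, adjusted p = 0.027). With 1 library left out, 12, 0, 13 and 8 genes of the glycolysis and hypoxia list and 10, 0, 5 and 3 genes of oxidative phosphorylation fell.

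Genes of amino acid import and of protein folding in the endoplasmic reticulum also fell in part. SLC7A5 and SLC3A2, which pair as a transporter of large amino acids, both fell. SLC7A5 had 759 and 701 CPM with EPZ-6438, against 1007 and 1227 CPM in control libraries (log2 fold change −0.61 ± 0.11, adjusted p = 0.022). SLC3A2 had 181 and 177 CPM with the drug and 265 and 306 CPM without (log2 fold change −0.68 ± 0.11, adjusted p = 0.017). SLC1A5, the glutamine transporter, had 89.1 and 85.2 CPM with the drug and 125 and 148 CPM without (log2 fold change −0.65 ± 0.11, adjusted p = 0.021). Of 34 genes of the ATF4 and amino acid stress list 10 fell and 4 rose, beside 10% and 8.27% of all genes. The lipoprotein receptor VLDLR of that list rose, with 15.2 and 16.96 CPM with the drug and 7.36 and 8.05 CPM without (log2 fold change 1.06 ± 0.17, adjusted p = 0.018). Of 25 folding genes 7 fell and 0 rose, with the chaperone HSPA5 at 815 and 795 CPM with the drug and 1197 and 1119 CPM without (log2 fold change −0.52 ± 0.11, adjusted p = 0.034). Its cofactor SDF2L1 had 46.8 and 45.1 CPM with the drug and 72.6 and 99.7 CPM without (log2 fold change −0.91 ± 0.16, adjusted p = 0.023). When 1 library was left out, 8, 0, 7 and 7 of the ATF4 list and 7, 0, 5 and 6 folding genes fell. FASN, fatty acid synthase, had 1001 and 926 CPM with EPZ-6438, against 1347 and 1806 CPM in control libraries (log2 fold change −0.71 ± 0.14, adjusted p = 0.026). ABCA1, the exporter of cholesterol, went the other way with 42.7 and 42.9 CPM with the drug and 15.8 and 16.3 CPM without (log2 fold change 1.41 ± 0.15, adjusted p = 0.0064).

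**Figure D3:**
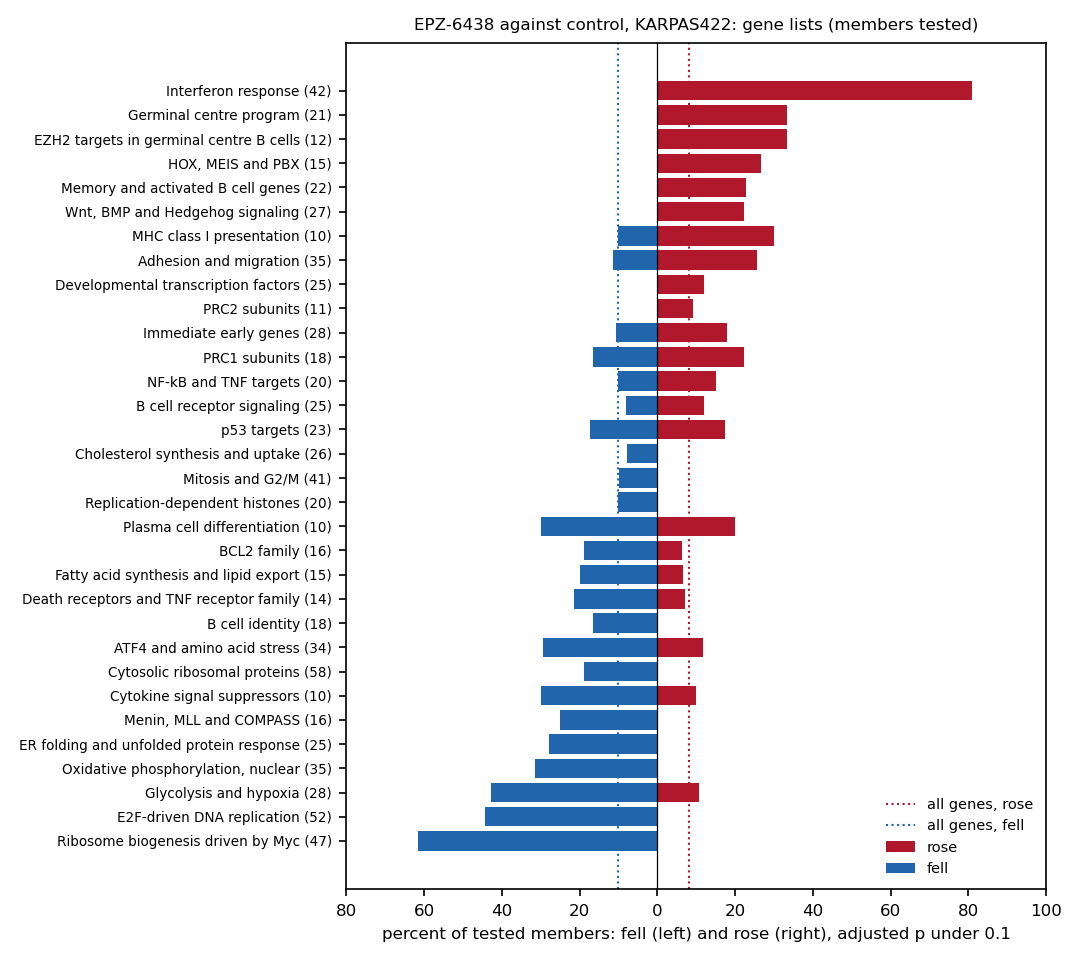
Percent of the tested members of each gene list that fell (blue, left) and rose (red, right) with EPZ-6438 in KARPAS422 at an adjusted p under 0.1, for lists with at least 10 members tested, whose number stands in brackets. Dotted lines mark all genes tested (8.27% rose, 10% fell). The interferon list reaches furthest to the right with 34 of 42 members, and the ribosome biogenesis list furthest to the left with 29 of 47.

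Genes of body plan and embryonic signaling are classical Polycomb targets. Most HOX genes and developmental factors were too low to test, with 15 of 46 members of the HOX, MEIS and PBX list and 25 of 104 developmental transcription factors passing the filter. MEIS1, a partner of HOX proteins, had 7.96 and 7.98 CPM in the EPZ-6438 libraries, against 1.44 and 2.14 CPM in the control libraries (log2 fold change 2.14 ± 0.29, adjusted p = 0.012). PBX3 had 35.5 and 37.2 CPM with the drug and 16.5 and 14.9 CPM without (log2 fold change 1.22 ± 0.14, adjusted p = 0.0077). HOXB3 had 12.9 and 11.9 CPM with the drug and 6.34 and 6.64 CPM without (log2 fold change 0.93 ± 0.17, adjusted p = 0.023). Of the HOX, MEIS and PBX members 4 rose and 0 fell. SOX9 had 114 and 104 CPM with EPZ-6438, against 41.9 and 40.1 CPM in control libraries (log2 fold change 1.42 ± 0.17, adjusted p = 0.0088). SNAI2 had 47.0 and 50.8 CPM with the drug and 30.7 and 23.2 CPM without (log2 fold change 0.87 ± 0.20, adjusted p = 0.041). Both are regulators of cell fate outside the blood, and 3 of the 25 developmental factors rose and 0 fell, a share near the 8.27% of all genes. Of 27 tested genes of Wnt, BMP and Hedgehog signaling 6 rose and 0 fell. WNT5A, a secreted ligand, had 392 and 376 CPM with EPZ-6438, against 215 and 200.1 CPM in control libraries (log2 fold change 0.89 ± 0.18, adjusted p = 0.029). FZD7, a receptor for Wnt ligands, had 15.6 and 16.6 CPM with the drug and 6.09 and 8.73 CPM without (log2 fold change 1.11 ± 0.20, adjusted p = 0.022). FZD2 had 1.57 and 1.12 CPM with the drug and 0.0845 and 0.225 CPM without, which is 1 and 4 counts in the control libraries (log2 fold change 2.999 ± 0.64, adjusted p = 0.035). A low gene can pass the filter through the libraries where it is high, so rises are favored among the members tested, and the counts say nothing of the members left out. Under the same leave-one-out fits, 2, 0, 2 and 2 of the HOX, MEIS and PBX list, 1, 0, 2 and 1 developmental factors and 2, 0, 3 and 3 of the signaling list rose.

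Of 35 adhesion and migration genes 9 rose and 4 fell, beside 8.27% and 10% of all genes, so the share of falls was near that of all genes. ALCAM, a cell adhesion molecule, had 27.1 and 25.2 CPM with EPZ-6438, against 9.81 and 8.50 CPM in control libraries (log2 fold change 1.52 ± 0.13, adjusted p = 0.0036). ITGB2, the beta chain of leukocyte integrins, had 192 and 179.7 CPM with the drug and 273 and 308 CPM without (log2 fold change −0.64 ± 0.12, adjusted p = 0.023). With 1 library left out, 3, 0, 4 and 3 of the list rose and 2, 0, 4 and 0 fell.

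Other regulators of chromatin went both ways. In PRC1, the complex that reads the Polycomb mark, 4 of 18 tested members rose and 3 fell, beside 8.27% and 10% of all genes. PCGF5, a subunit that defines a variant form of the complex, had 27.01 and 24.3 CPM with EPZ-6438, against 14.2 and 8.84 CPM in control libraries (log2 fold change 1.17 ± 0.30, adjusted p = 0.056). RYBP, a subunit of such variant forms, had 38.6 and 36.2 CPM with the drug and 24.7 and 20.05 CPM without (log2 fold change 0.74 ± 0.17, adjusted p = 0.04). PHC1, of the canonical form, had 14.3 and 14.8 CPM with the drug and 7.78 and 9.69 CPM without (log2 fold change 0.74 ± 0.15, adjusted p = 0.033). In these 3 genes both EPZ-6438 libraries lay above both control libraries. CBX6, a reader of the mark, had 133 and 124 CPM with the drug and 167 and 173 CPM without (log2 fold change −0.40 ± 0.11, adjusted p = 0.073). KDM6B, which removes the mark, had 83.2 and 80.4 CPM with the drug and 97.1 and 113 CPM without (log2 fold change −0.36 ± 0.11, adjusted p = 0.084). Of 16 genes listed with the menin and MLL complexes 4 fell and 0 rose, namely MEN1, DOT1L, SETD1A and WDR5, of which DOT1L is not a subunit of them. MEN1, which encodes menin, had 109 and 106 CPM with EPZ-6438, against 129.5 and 153 CPM in control libraries (log2 fold change −0.40 ± 0.11, adjusted p = 0.07). DOT1L, a methyltransferase of histone H3 on another lysine, had 96.4 and 92.4 CPM with the drug and 125 and 172 CPM without (log2 fold change −0.66 ± 0.16, adjusted p = 0.045). SETD1A, a relative of the MLL enzymes, had 88.0 and 88.2 CPM with the drug and 114 and 132 CPM without (log2 fold change −0.48 ± 0.12, adjusted p = 0.05), and the scaffold WDR5 107 and 97.1 CPM with the drug and 134 and 140.1 CPM without (log2 fold change −0.42 ± 0.11, adjusted p = 0.056). When 1 library was left out, 2, 0, 6 and 0 of these complexes fell, and of PRC1 0, 0, 2 and 1 rose and 2, 0, 1 and 0 fell. Scaled by total counts alone, KDM6B and MEN1 missed the threshold (adjusted p = 0.19 and 0.16). MYB, a transcription factor the study also examined, had 6.16 and 5.81 CPM with the drug and 2.71 and 2.31 CPM without (log2 fold change 1.25 ± 0.34, adjusted p = 0.064).

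The menin inhibitor VTP50469 was given to the same line at its own dose for the same time. Compared directly, 448 genes were higher with EPZ-6438 than with VTP50469 (3.39%) and 650 lower (4.92%). The genes named next were chosen for their change in the same EPZ-6438 libraries, which favors a difference in that direction. CDKN1A had 15.02 and 14.1 CPM with EPZ-6438, against 5.44 and 4.71 CPM with VTP50469 (log2 difference 1.52 ± 0.16, adjusted p = 0.02). SERPINE2 had 69.4 and 61.2 CPM with EPZ-6438, against 21.3 and 21.3 CPM with VTP50469 (1.61 ± 0.16, adjusted p = 0.02). PBX3 had 35.5 and 37.2 CPM with EPZ-6438, against 16.96 and 16.1 CPM with VTP50469 (1.14 ± 0.14, adjusted p = 0.02). For these 3 genes both EPZ-6438 libraries lay above both VTP50469 libraries. GAPDH, SLC7A5 and FASN were lower with EPZ-6438 than with VTP50469, FASN with 1001 and 926 CPM with EPZ-6438, against 1710 and 1634 CPM with VTP50469 (−0.80 ± 0.14, adjusted p = 0.026).

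Many interferon genes rose with each inhibitor. None of the 42 tested was higher with EPZ-6438 than with VTP50469 and 9 were lower, where 4.47% and 15.7% of all genes tested passed. IFI6 had 609 and 602 CPM with EPZ-6438, against 1127 and 1020 CPM with VTP50469 (−0.83 ± 0.08, adjusted p = 0.02). LGALS9 had 6.61 and 7.06 CPM with EPZ-6438, against 7.30 and 4.71 CPM with VTP50469 (0.19 ± 0.21, adjusted p = 0.7), a difference within the error of the fit. Against the same control libraries that the EPZ-6438 comparison uses, 27 interferon genes rose with VTP50469 (3.18% of all genes), with a median log2 fold change of 1.15 beside 1.00 with EPZ-6438. The comparisons of VTP50469 and of both drugs with control share their control libraries with that of EPZ-6438, so an overlap of their calls is no result. Of all genes tested 2.38% rose and 0.0908% fell with VTP50469, and 19.8% rose and 15.1% fell with both drugs. Over those controls the 906 rises of EPZ-6438 had a median log2 fold change of 0.51 with VTP50469 and of 1.695 with both drugs, and the 335 falls −0.05 and −1.01. Without EPZ-6438 replicate 2 or without VTP50469 replicate 1 the direct comparison called 0 genes (932 and 889 at an unadjusted p under 0.05). Without EPZ-6438 replicate 1 it called 131 higher and 1203 lower, and without VTP50469 replicate 2 70 and 722.

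At the rule that includes the fold, SuDHL10 had more rises than falls, as KARPAS422 did in the main fit. In SuDHL10 1097 genes rose (9.62%) and 35 fell (0.307%) of 11409 tested. At an adjusted p under 0.1 alone 1384 rose and 615 fell in SuDHL10, while in KARPAS422 1093 rose and 1326 fell. SuDHL10 was treated for 24 hours in place of 48, so line and treatment time cannot be told apart. Among genes tested in both lines, 281 rose in both, which is 35.5% of the 792 rises of KARPAS422 and 27.9% of the 1007 of SuDHL10, where 9.1% of all genes tested in both rose in SuDHL10. Of 328 falls of KARPAS422 2 (0.61%) fell in SuDHL10 and 9 (2.74%) rose there, beside 0.289% and 9.1% of all genes tested in both. These falls had a median log2 fold change of −0.19 in SuDHL10, and 24.1% of them were above 0. Over all genes tested in both the median was −0.03, and 45.5% were above 0. PRKCB, CDKN1A and TXNIP were among the rises of both lines. PRKCB had 5.99 and 6.62 CPM with EPZ-6438, against 1.98 and 1.83 CPM in control libraries in SuDHL10 (log2 fold change 1.73, adjusted p = 0.0014). CDKN1A had 14.1 and 12.3 CPM with EPZ-6438, against 3.58 and 3.14 CPM in control libraries (1.97, adjusted p = 0.00033). OPTN, a receptor of selective autophagy, and HMOX1, heme oxygenase, chosen after their values were seen, rose by 2.50 and 1.89 on the log2 scale in KARPAS422 and by 3.51 and 2.46 in SuDHL10.

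The difference between the lines was tested by an interaction term over 13746 genes, of which 251 (1.83%) had a higher effect in KARPAS422 and 252 (1.83%) a lower one. With the replicate block they numbered 410 and 437. Genes picked for their change in KARPAS422 lean to a larger effect there by that choice, so no count over the rises and falls is given. Of interferon genes 17 of 42 were higher in KARPAS422 and 0 lower, beside 1.96% and 1.97% of all genes at an adjusted p under 0.1 alone. In SuDHL10 5 of 37 tested rose and 2 fell (median log2 fold change 0.05), beside 12.1% and 5.39% of all genes. MX2 had 144 and 131 CPM with EPZ-6438, against 146 and 142 CPM in control libraries in SuDHL10, and its effect was higher in KARPAS422 by 1.30 ± 0.13 (adjusted p = 0.00044). LGALS9, CD38, PECAM1 and LMO2 also differed by this test, LMO2 by 1.39 ± 0.16 (adjusted p = 0.00096).

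Genes of the glycolysis and hypoxia list and most immediate early genes that differed did so in the other direction. Of 28 glycolysis and hypoxia genes 13 rose and 0 fell in SuDHL10, beside 12.1% and 5.39% of all genes. By the interaction test 15 of them had a lower effect in KARPAS422 and 0 a higher one, beside 1.97% and 1.96% of all genes. NDRG1 had 3.09 and 2.84 CPM with EPZ-6438, against 0.107 and 0.0872 CPM in control libraries in SuDHL10, where each control library held 2 counts, and its KARPAS422 values are given above. Of the immediate early genes, which answer growth signals within minutes, 5 of 28 tested rose and 3 fell in KARPAS422, beside 8.27% and 10% of all genes. That share of falls was near the share of all genes. In SuDHL10 17 of 27 rose and 0 fell (12.1% and 5.39% of all genes). By the interaction test 12 immediate early genes had a lower effect in KARPAS422 and 2 a higher one, beside 1.97% and 1.96% of all genes. NR4A1, a nuclear receptor of this class, had 23.8 and 23.3 CPM in the EPZ-6438 libraries, against 31.5 and 33.8 CPM in the control libraries of KARPAS422. In SuDHL10 it had 4.75 and 3.59 CPM with EPZ-6438, against 0.374 and 0.349 CPM in control libraries (difference −3.97 ± 0.25, adjusted p = 2.6e-05). MYC, which fell in KARPAS422, had a log2 fold change of 0.03 in SuDHL10 (difference −0.76 ± 0.16, adjusted p = 0.026). Ribosome biogenesis genes moved the same way in both lines, with 20 of 47 falling and 0 rising in SuDHL10, beside 5.39% and 12.1% of all genes. Genes with a higher effect in KARPAS422 numbered 155, 147 and 162 without its EPZ-6438 replicate 1, its EPZ-6438 replicate 2 and its control replicate 2. Without the same libraries 119, 84 and 119 genes had a lower effect there. Without SuDHL10 EPZ-6438 replicate 1 genes with a lower effect numbered 112, and 98 without SuDHL10 control replicate 2.

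**Figure D4:**
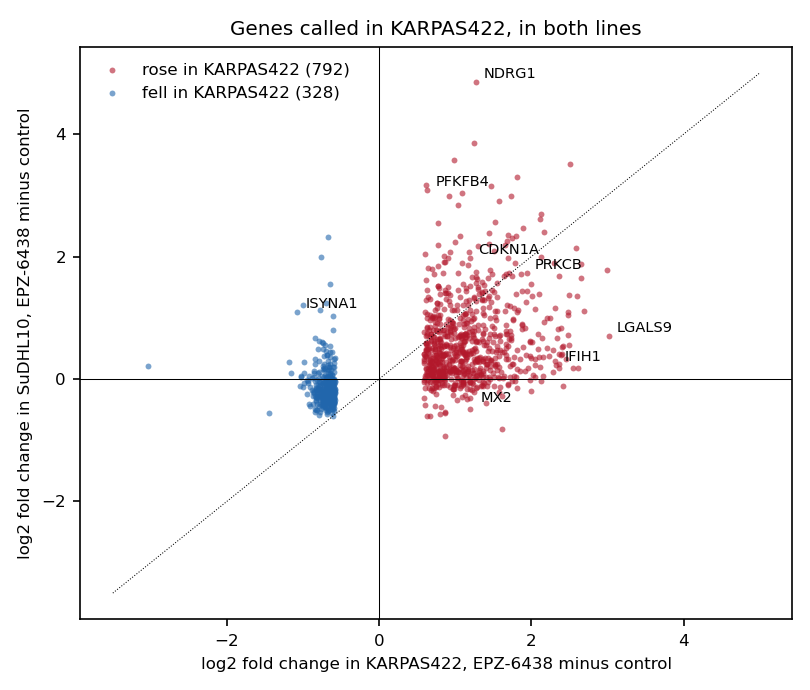
Log2 fold change with EPZ-6438 in SuDHL10 (vertical axis) against that in KARPAS422 (horizontal axis) for the genes called in KARPAS422 and tested in both lines, 792 that rose (red) and 328 that fell (blue). The dotted line marks equal changes. Most red points lie above 0 but under the dotted line, and NDRG1 and PFKFB4 stand far above it.

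The levels of the called genes without the drug were also set against those of a line with wild-type EZH2. They were read in libraries outside the drug comparison, the DMSO libraries of KARPAS422 and of Farage, a lymphoma line with wild-type EZH2, 2 of each, where KARPAS422 was above Farage in 3647 of 14343 genes (25.4%) and below it in 3785 (26.4%). Of 843 EPZ-6438 rises tested there 427 (50.7%) were lower in KARPAS422 and 260 (30.8%) higher, with a median log2 difference of −0.67. Of 329 falls 56 (17.02%) were lower and 82 (24.9%) higher, with a median of 0.15, and over all 11064 genes shared by both tables the median was 0.06. CD40 had 10.8 and 9.80 CPM in KARPAS422, against 192 and 190.3 CPM in Farage (log2 difference −4.22). CD38 and CCR7 were close to 0 in these KARPAS422 libraries, so no fold is given. CD38 had 0.137 and 0.136 CPM in KARPAS422, against 54.2 and 55.0 CPM in Farage, and CCR7 0.205 and 0.0852 CPM in KARPAS422, against 61.8 and 62.3 CPM in Farage. The experiments disagree on CD38, which had 3.97 and 3.89 CPM in the KARPAS422 control libraries of the drug table. Other named rises differed between the experiments too, some in the other direction. LGALS9 had 4.78 and 4.74 CPM in the KARPAS422 DMSO libraries, against 0.761 and 0.901 CPM in those control libraries. XAF1 had 164 and 157 CPM there, against 28.5 and 28.1 CPM, and so stood above its EPZ-6438 libraries (107 and 97.0 CPM). The reason was not tested. Others among the rises went the opposite way, such as PECAM1 with 2.84 and 3.03 CPM in KARPAS422, against 0.731 and 0.741 CPM in Farage (1.99) and IFI6 with 358 and 343 CPM in KARPAS422, against 8.33 and 8.69 CPM in Farage (5.36). The lines differ in much besides EZH2, and the part of EZH2 in these levels was not tested. Rising genes were also low in the KARPAS422 control libraries of the drug table, with a median of 7.29 CPM beside 28.2 CPM of all genes tested. The part of that low level in the difference from Farage was not tested.

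The promoters of both sets differed in CpG, the dinucleotide in which PRC2-bound promoters are known to be rich. Of 732 rising genes with a RefSeq promoter 65.6% had a ratio of observed over expected CpG above 0.6, with a median of 23 CpG in 300 bases, and of 268 falling genes 89.2%, with a median of 30.5. Rising genes were also lower in control libraries (7.29 against 84.4 CPM in the medians above), and the part of that level in the CpG difference was not tested. Of all genes tested 79.4% had an entry, under the minimum of 80% set for such a check, so a comparison with them is void. As a description, 76.6% of those 10499 promoters were above 0.6, with a median of 25 CpG, values between those of the rising and the falling genes. Promoters of 3 genes that rose and of 1 that fell are shown to span this range, with every CpG in capitals, written 5′ to 3′ along the gene's strand from GRCh38.p14.
PRKCB (chr16:23835733-23836032, plus strand): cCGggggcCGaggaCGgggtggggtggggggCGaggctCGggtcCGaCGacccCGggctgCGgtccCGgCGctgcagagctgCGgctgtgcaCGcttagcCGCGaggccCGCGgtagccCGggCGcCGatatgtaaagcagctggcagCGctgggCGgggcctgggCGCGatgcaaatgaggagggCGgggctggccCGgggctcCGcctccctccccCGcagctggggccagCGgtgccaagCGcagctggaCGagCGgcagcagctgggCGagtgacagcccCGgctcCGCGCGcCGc
APCDD1 (chr18:10454385-10454684, plus strand): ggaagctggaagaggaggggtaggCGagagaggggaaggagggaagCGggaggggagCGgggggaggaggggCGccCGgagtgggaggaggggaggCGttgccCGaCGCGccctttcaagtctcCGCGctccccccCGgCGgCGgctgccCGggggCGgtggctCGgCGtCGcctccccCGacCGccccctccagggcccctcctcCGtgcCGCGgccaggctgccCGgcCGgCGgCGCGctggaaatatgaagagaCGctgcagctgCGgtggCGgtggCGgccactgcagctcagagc
SESN3 (chr11:95232426-95232725, minus strand): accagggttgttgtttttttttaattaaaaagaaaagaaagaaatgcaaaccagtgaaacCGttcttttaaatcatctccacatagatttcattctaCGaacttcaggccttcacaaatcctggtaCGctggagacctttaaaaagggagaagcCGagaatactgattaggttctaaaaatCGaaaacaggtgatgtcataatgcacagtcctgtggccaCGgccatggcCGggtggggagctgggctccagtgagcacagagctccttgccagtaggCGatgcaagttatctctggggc
SRM (chr1:11059969-11060268, minus strand): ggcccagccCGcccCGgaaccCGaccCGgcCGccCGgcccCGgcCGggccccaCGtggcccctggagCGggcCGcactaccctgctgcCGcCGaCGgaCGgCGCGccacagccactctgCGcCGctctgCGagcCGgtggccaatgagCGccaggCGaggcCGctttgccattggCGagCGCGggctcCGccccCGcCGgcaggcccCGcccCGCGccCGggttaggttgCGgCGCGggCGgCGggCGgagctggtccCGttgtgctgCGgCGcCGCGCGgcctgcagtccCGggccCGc
PRKCB, APCDD1 and SESN3 rose with 38, 33 and 8 CpG, and SRM fell with 48.

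**Figure D5:**
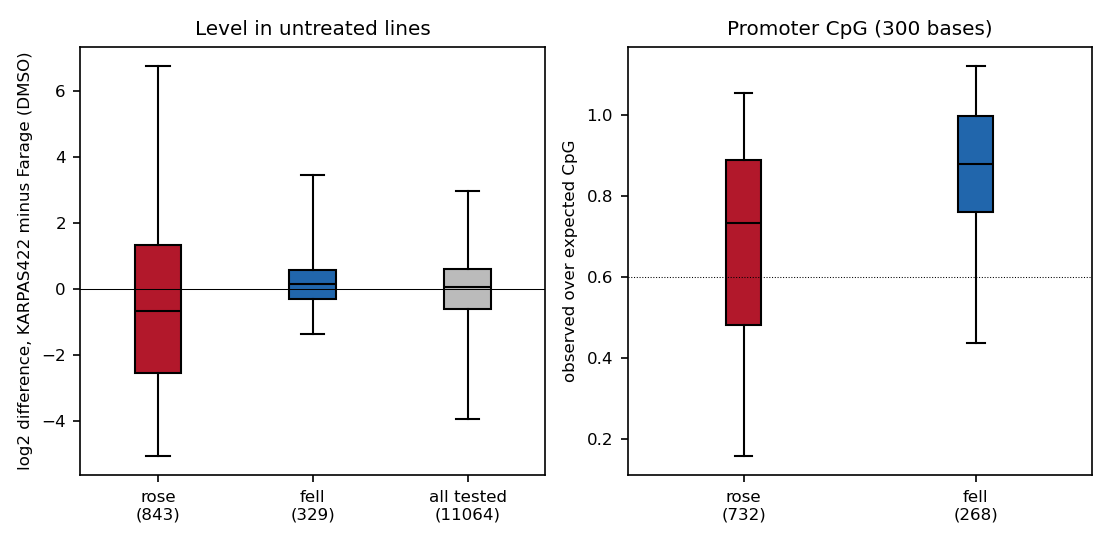
Left, log2 difference of KARPAS422 minus Farage vehicle libraries for the genes that rose (843), fell (329) and all tested (11064) with EPZ-6438. Right, ratio of observed over expected CpG in 300 promoter bases for 732 genes that rose and 268 that fell, with a dotted line at 0.6. Boxes span the quartiles with the median as a line, whiskers the 5th to 95th percentile, and the rising genes have the lower median in both panels.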

How the data were processed

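RNA was sequenced after removal of ribosomal RNA. Per the study's methods and the submitters' notes the authors aligned the reads to hg38 by HISAT2 (2.1.0) and made gene counts by featureCounts (1.6.1). Picard (2.23.1) served the CUT&Tag reads, which are not used here, and CASAVA (1.7) is listed with its role unstated. The deposited values are counts, not normalized. The handling of strand, annotation and multiply matching reads is unstated in these sources, and overlapping genes and near copies may share reads.

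From the counts, genes were kept by filterByExpr and scaled by TMM. The test was edgeR's quasi-likelihood F (4.0.16, R 4.3.3) with Benjamini-Hochberg adjustment over all genes, on the 8 KARPAS422 libraries of the drug combination (4 groups), without a replicate block. Genes were called at an adjusted p under 0.1 and over 1.5-fold. For members of lists the p-value was enough. SuDHL10, the difference between the lines and the vehicle libraries of the other table were fitted apart. Alternatives were RLE factors, total counts, other filters, DESeq2 (1.42.0), thinned counts, the replicate block and each library left out. The procedure was tested on simulated data. Deviations of same-numbered libraries from their group means correlated by 0.65 to 0.864 in KARPAS422 and by 0.109 to 0.471 in SuDHL10. Same-numbered libraries thus deviated together in KARPAS422 and less so in SuDHL10, and the reason was not tested. The fitted dispersion was 0.12 without the block and 0.0153 with it. The chi-square per gene between replicate libraries was 1.82 for EPZ-6438, 15.2 for control and 47.4 for both drugs, so none was counted as 1 library. Replicate 2 of both drugs stood apart, with a TMM factor of 1.21 beside 0.923 to 1.03 in the groups compared here, and without it 1110 genes rose and 435 fell.

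The members, the 43 gene lists and the tests were chosen with earlier results of these data known. Named genes are EZH2, genes that the study discusses, the 15 strongest rises and 15 strongest falls (called, 5 CPM or more, no overlap of libraries), at most 4 members per list by lowest p, and called members that go against the majority of their list. A few genes that meet the rule are not reported here. Of the rest, the genes printed were chosen with their values known, and genes outside the rule are named as such or as counts. Coordinates are from GENCODE 44 on hg38, and promoter sequences from RefSeq, matched by symbol. Doses and times come from a figure legend. The other treatments and assays of the series were not used here beyond the comparisons given.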

Additional observations from a re-analysis of the deposited data

Results flagged for a closer look

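The results that stand out by a test of their own are those where EPZ-6438 acted differently in KARPAS422 and SuDHL10, by an interaction term in edgeR's quasi-likelihood fit at an adjusted p under 0.1 and over 1.5-fold. With 251 genes higher and 252 lower in KARPAS422 the difference ran both ways. Values below are the KARPAS422 effect minus the SuDHL10 effect on the log2 scale. Genes named for their change in KARPAS422 lean to a larger effect there by that choice. Line and treatment time (48 against 24 hours) cannot be told apart, and groups of 2 libraries are too small for a test of outlying libraries.

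Among genes of the B cell and its surface, the difference was 2.32 for LGALS9, 2.14 for PECAM1, 1.85 for CXCR4, 1.82 for CD38, 1.43 for FCRL3, 1.39 for LMO2, 1.31 for ALCAM, 1.16 for CD86, 0.80 for CD40 and 0.77 for SERPINA9. FCRL3 fell in SuDHL10 (log2 fold change −0.55, adjusted p = 0.0063) and rose in KARPAS422. Of interferon genes it was 1.52 for XAF1, 1.30 for MX2 and 0.64 for IFI6. Of regulators of transcription and growth it was 1.46 for MEIS1, 1.25 for MYB, 0.98 for PBX3, 0.67 for CDKN2C, 0.61 for DUSP6, 1.46 for SESN3 and 2.09 for BMF. It was 1.52 for ABCA1, 1.90 for ILDR2 and 1.38 for KLHL13, and 4.19 for KIAA1210 and 3.44 for FYB1, which were too low in SuDHL10 to be tested there alone.

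On the other side NR4A1 had the widest gap of the named genes, −3.97, followed by −3.59 for NDRG1, −2.96 for CBARP (not tested in SuDHL10 alone) and −2.44 for PFKFB4. NDRG1 and PFKFB4 rose in both lines, and NDRG1 was near 0 in the SuDHL10 control libraries. ISYNA1 and SH3D21 fell in KARPAS422 and rose in SuDHL10, with differences of −2.16 and −2.21 and SuDHL10 log2 fold changes of 1.09 and 1.21 (adjusted p = 0.026 and 0.0026). Of the remaining falls of KARPAS422 the difference was −1.47 for HIC1, −1.27 for NUMBL, −1.18 for DUSP2, −1.08 for PLK3, −0.93 for RAB3A, −0.92 for TUBA4A, −0.76 for MYC and −0.74 for ITGB2. For genes of metabolism it was −0.91 for PFKP, −0.76 for ENO1, −0.89 for SLC1A5 and −0.70 for SLC3A2.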

How the results depend on the processing

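Beside 906 rises and 335 falls, totals were 890 and 369 with RLE factors, 898 and 372 by DESeq2, 1000 and 342 from the 4 libraries alone, 755 and 241 without the filter, 758 and 426 at a 5 CPM minimum, 769 and 444 on thinned counts and 1110 and 435 without both drugs replicate 2. Of the 906 and 335 genes, 878 and 335 kept their call with RLE factors, 855 and 334 by DESeq2 and 858 and 322 from the 4 libraries alone. Scaled by total counts alone, 145 fell. Leaving out 1 library gave 0 to 1110 rises and 0 to 672 falls. With the replicate block and 1 library left out, rises numbered 600, 424, 547 and 302 and falls 863, 12, 740 and 143 (without EPZ-6438 replicates 1 and 2 and control replicates 1 and 2 in turn). EPZ-6438 against VTP50469 gave 0 to 131 higher and 0 to 1203 lower with 1 library left out. With the replicate block the lines differed in 410 genes higher and 437 lower in KARPAS422 (147 to 252 and 84 to 273 with 1 library left out, no block). Of 106 named genes, the block ended the call of BAX (adjusted p = 0.11) and changed no other call. Without EPZ-6438 replicate 2 103 of them missed the threshold. EZH2 and SUZ12, near 0, changed sign. EZH2 had −0.012 with RLE factors and by DESeq2 (−0.0124), −0.0346 on thinned counts, −0.0316 at a 5 CPM minimum, −0.0189 without both drugs replicate 2, −0.118 without EPZ-6438 replicate 1 and −0.237 without control replicate 2, and with the block −0.149 without EPZ-6438 replicate 2 and −0.155 without control replicate 2. SUZ12 had −0.145 to 0.303 with 1 library left out, −0.145 being without control replicate 2, and with the block −0.0926 without EPZ-6438 replicate 2 and −0.0073 without control replicate 2. The cause was not tested. The settings that leave out replicate 2 of both drugs, that leave out single libraries in the comparisons with VTP50469 and SuDHL10, and that join the block to a left-out library were chosen after seeing the data. The 8956156 counts of the shallowest library limit what can be seen of genes under 1 CPM.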

Other observations

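Genes that rose lay beside each other more often than tested genes at large. Of 894 rising genes placed on hg38, 24.5% had a rising gene as the next tested gene on either side, against 13.3% of all 12848 genes placed, and 15.7% of falling genes had a falling neighbor, against 4.95%. Runs of at least 3 rising genes in a row numbered 13, and those named here were chosen after their values were seen. PARP9, DTX3L, PARP15 and PARP14 lay together on chromosome 3 (122527924 to 122730840), with log2 fold changes of 0.64 to 1.15, and OAS1, OAS3 and OAS2 on chromosome 12 (112905856 to 113011723), at 0.81 to 1.16. MNDA, IFI16 and AIM2, of a family known for sensing DNA, lay on chromosome 1 (158831351 to 159187843), at 1.24 to 3.25, and CASP4, CASP1 and CARD16, of the inflammasome, on chromosome 11 (104942866 to 105101431), at 1.32 to 2.05. Neighbors can share reads where their transcripts overlap, and the part of this was not tested.

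Further lists went both ways. Of 20 NF-kB and TNF targets 3 rose and 2 fell, of 23 p53 targets 4 rose and 4 fell, and of 10 cytokine signal suppressors 1 rose and 3 fell, beside 8.27% and 10% of all genes. With 1 library left out, these rises numbered at most 2 in any list. Of the tested genes of chromosome 19 2.21% rose and 6.63% fell, of chromosome 16 2.77% and 6.57%, and of chromosome 22 8.28% and 6.69%, beside 6.85% and 2.53% of all, at the rule that includes the fold.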
